A study of Mus musculus with 3 samples.

Results

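Immediate early genes are the subject of this account: Fos, Fosb, Fosl2, Jun, Junb, Egr1, Egr3, Ier2 and Nr4a1. They are 9 of the 27998 genes in the deposited count tables and were found by their gene symbols, each of which matched 1 row. The data are single-nucleus RNA sequencing of whole mouse hearts at embryonic day 9.5, with 1 library for each of 3 genotypes of Ncx1, the older name of Slc8a1, which encodes the plasma membrane sodium-calcium exchanger of heart muscle. The libraries are Ncx1-/- (homozygous mutant), Ncx1+/- (heterozygous) and Ncx1+/+ (wild type), and the nuclei of each came from 5 frozen hearts that were pooled. The labels name no strain, no treatment and no details of the mutant allele. With 1 library per genotype there is no replicate, so no test between genotypes was made. Intervals given below cover counting error only, and differences between libraries cannot be told apart from differences between genotypes. The 9 genes were chosen by their levels in the nuclei of these 3 libraries, so their differences between the 3 libraries are given as a description.

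Immediate early genes are transcribed within minutes of a stimulus, without new protein synthesis, from transcription factors that are already present. In muscle cells and neurons the stimuli include calcium entry, and in vessel walls they include flow and stretch. Fos and Jun proteins pair through leucine zippers to form the AP-1 transcription factor. Egr proteins are zinc finger factors, Nr4a1 is an orphan nuclear receptor, and Ier2 is a small nuclear protein. Serum response factor with its Elk partners, and CREB bound to cAMP response elements, are the classical activators of Fos and Egr1. Mouse embryos without the exchanger are known to lack a normal heartbeat and blood flow at this stage.

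The RefSeq table used for promoters (build GRCm38.p6) held 6 of the 9 genes, each as 250 bases before and 50 bases after the annotated start. Fos, Fosb and Fosl2 are shown because they belong to 1 family and differed in opposite directions between the libraries, as described further on. Capitals mark 3 motifs, each searched on both strands. The first is TGACG, the core of the cAMP response element. GCGGGGGCG is an Egr-type site. The third, TATAAA, is a TATA box. The positions are chr12:85473640-85473939 on the plus strand for Fos, chr7:19309996-19310295 on the minus strand for Fosb and chr5:32136222-32136521 on the plus strand for Fosl2.
Fos: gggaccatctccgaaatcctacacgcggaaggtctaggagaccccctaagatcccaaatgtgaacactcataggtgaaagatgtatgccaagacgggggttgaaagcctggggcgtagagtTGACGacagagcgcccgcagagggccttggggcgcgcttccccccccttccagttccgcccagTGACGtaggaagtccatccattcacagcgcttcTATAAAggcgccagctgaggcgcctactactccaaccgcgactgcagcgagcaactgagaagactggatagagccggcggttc
Fosb: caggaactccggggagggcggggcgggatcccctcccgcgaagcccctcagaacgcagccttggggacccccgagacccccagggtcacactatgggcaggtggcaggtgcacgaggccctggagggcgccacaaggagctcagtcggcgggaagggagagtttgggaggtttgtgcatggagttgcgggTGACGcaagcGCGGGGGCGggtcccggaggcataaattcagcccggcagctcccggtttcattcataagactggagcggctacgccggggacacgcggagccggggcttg
Fosl2: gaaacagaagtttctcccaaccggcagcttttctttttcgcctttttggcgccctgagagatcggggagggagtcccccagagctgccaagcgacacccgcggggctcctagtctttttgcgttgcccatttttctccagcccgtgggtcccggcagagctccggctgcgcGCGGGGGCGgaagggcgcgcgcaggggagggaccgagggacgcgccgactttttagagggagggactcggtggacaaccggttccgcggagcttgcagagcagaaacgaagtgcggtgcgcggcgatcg

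The Fos window held TGACG at 129 and at 66 bases before the start, and TATAAA at 33 bases before it. Fosb held TGACG at 60 bases and GCGGGGGCG at 50 bases before the start. Fosl2 held GCGGGGGCG at 79 bases before the start and no TGACG. The motif TGACG was present in 20.8% of the 32851 promoter windows of the table, GCGGGGGCG in 2.91% and TATAAA in 13.6%. Of the 3 other members in the table, Nr4a1 held TGACG at 233, 213, 69 and 40 bases before its start, and GCGGGGGCG at 60 bases. Junb held TGACG at 106 bases before the RefSeq start and TATAAA at that start itself, and Jun held none of these. The full palindrome TGACGTCA, which contains TGACG and stands in 1.79% of windows, the AP-1 site TGANTCA (7.81%), the Egr site GCGTGGGCG (0.612%) and the CArG box bound by serum response factor (1.63%) had no match in the 6 windows. A match of letters is a description and does not show that a factor binds there. Bases outside these windows, and the promoters of Egr1, Egr3 and Ier2, were not searched, so sites there would be missed.

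By the GENCODE M21 annotation of build mm10, Fos lies on chromosome 12 at 85473890 to 85477273 (plus strand) and Fosb on chromosome 7 at 19302696 to 19310051 (minus strand). Fosl2 lies on chromosome 5 at 32135801 to 32157842 (plus strand) and Nr4a1 on chromosome 15 at 101254269 to 101274795 (plus strand). Egr1 lies on chromosome 18 at 34859823 to 34864984 and Egr3 on chromosome 14 at 70077203 to 70082614, both on the plus strand. Ier2, a gene of 1 exon, lies on chromosome 8 at 84661331 to 84662852 (minus strand). Jun, also of 1 exon, lies on chromosome 4 at 95049034 to 95052222 (minus strand) and overlaps the antisense gene Junos. Junb lies on chromosome 8 at 84974484 to 84978718 (minus strand) and overlaps Prdx2 on the other strand. Neither the labels nor the headers say whether counting used the strand or included introns, so reads of Jun and Junb cannot be told apart from those of their overlapping partners. Gene lengths differ, so levels are compared within a gene and not between genes. The RefSeq starts used for the promoter windows match these gene bounds for Fos and Jun, and differ for Fosb, Fosl2, Junb and Nr4a1. The windows of Fosl2 and of Nr4a1 (chr15:101266596-101266895) lie inside the gene bounds given here. Distances of motifs above are from the RefSeq start.

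The libraries held 12525 (Ncx1-/-), 12563 (Ncx1+/-) and 13805 (Ncx1+/+) barcodes with 49022310 to 59898298 unique molecular identifiers (UMIs) per library. After filters on detected genes, mitochondrial UMIs and doublets, 11231, 11267 and 12464 nuclei were kept, and 40 to 57 barcodes were shared by any pair of libraries. Slc8a1 stood at 1033 counts per 1000000 UMIs (CPM) in Ncx1-/- nuclei, 6540 CPM in Ncx1+/- nuclei and 11830 CPM in Ncx1+/+ nuclei, an order that matched the labels. Nuclei were gated by their share of UMIs on lists of marker genes, which gave 8692, 8034 and 8566 cardiomyocyte-gated nuclei and 1659, 2134 and 2495 endothelial-gated nuclei in Ncx1-/-, Ncx1+/- and Ncx1+/+. Within 25% above the gate lay 1.91% of the cardiomyocyte-gated and 1.57% of the endothelial-gated nuclei. The median share of endothelial markers in the cardiomyocyte gate was 0.0 to 1.41 per 10000 UMIs, and that of cardiomyocyte markers in the endothelial gate 14.1, 9.01 and 8.47 per 10000 in Ncx1-/-, Ncx1+/- and Ncx1+/+. All 11 cardiomyocyte markers and all 13 endothelial markers were higher in their own gate. The long nuclear RNA Malat1 took 9.55% of UMIs in cardiomyocyte-gated nuclei of Ncx1-/-, against 5.87% in Ncx1+/- and 5.68% in Ncx1+/+.

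A member was called apart in 1 library when its CPM was at least 1.5 times beyond both other libraries and the 95% counting interval of each ratio excluded 1. Genes with at least 100 counts over the 3 libraries of a class were taken as measured. In cardiomyocyte-gated nuclei 8 of the 9 members were measured, all but Egr3. Of these, 5 (Egr1, Fos, Fosb, Jun and Ier2) had their low value in Ncx1-/- by this criterion, which 2.91% of all 14112 measured genes also met. Fosl2 was the 1 member higher in Ncx1-/-, a call met by 4.34% of measured genes. Egr1 and Fosb were also higher in Ncx1+/- than in both others, which 0.22% of measured genes were. No member was lower in Ncx1+/- (0.177% of measured genes). These counts describe genes chosen for such differences, and nothing is read from them about the 9 genes.

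Among the Fos genes, Fos itself encodes the founding partner of Jun in AP-1. It stood at 16.2 CPM in Ncx1-/- (565 counts, interval 14.9 to 17.6), 61.4 CPM in Ncx1+/- (1832 counts, 58.7 to 64.3) and 43.3 CPM in Ncx1+/+ (1494 counts, 41.1 to 45.6). The 3 intervals did not overlap, with Ncx1+/- highest and Ncx1-/- lowest. The ratio of Ncx1-/- to Ncx1+/+ was 0.373 (0.338 to 0.412), and that of Ncx1+/- to Ncx1+/+ was 1.42 (1.32 to 1.52). Fosb encodes a close relative with the same zipper. It stood at 2.15 CPM in Ncx1-/- (75 counts), 24.6 CPM in Ncx1+/- (732 counts) and 9.33 CPM in Ncx1+/+ (322 counts). Its order was that of Fos with wider gaps: the ratio to Ncx1+/+ was 0.230 (0.176 to 0.296) for Ncx1-/- and 2.63 (2.30 to 3.01) for Ncx1+/-. Fosl2 encodes Fra-2, a Fos relative without the strong activation domain of Fos. It stood at 7.38 CPM in Ncx1-/- (258 counts), 4.19 CPM in Ncx1+/- (125 counts) and 3.91 CPM in Ncx1+/+ (135 counts). Here Ncx1-/- was the highest, at 1.89 times Ncx1+/+ (1.53 to 2.34), and the intervals of the other libraries overlapped.

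Jun encodes the AP-1 subunit that can pair with itself as well as with Fos. It stood at 45.8 CPM in Ncx1-/- (1601 counts, interval 43.6 to 48.1), 81.0 CPM in Ncx1+/- (2416 counts, 77.8 to 84.3) and 84.0 CPM in Ncx1+/+ (2900 counts, 81.0 to 87.2). Only Ncx1-/- stood apart, at 0.545 of Ncx1+/+ (0.512 to 0.579), while Ncx1+/- and Ncx1+/+ overlapped. Junb, which encodes a weaker activator than Jun, stood at 4.92 CPM in Ncx1-/-, 7.28 CPM in Ncx1+/- and 4.49 CPM in Ncx1+/+. Its highest library was Ncx1+/-, at 1.62 times Ncx1+/+ (1.312 to 2.004), and Ncx1-/- and Ncx1+/+ overlapped.

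Egr1, the zinc finger factor with the largest gap, stood at 0.915 CPM in Ncx1-/- (32 counts, interval 0.626 to 1.29), 12.5 CPM in Ncx1+/- (372 counts, 11.2 to 13.8) and 5.62 CPM in Ncx1+/+ (194 counts, 4.86 to 6.47). The intervals did not overlap, and the ratio of Ncx1-/- to Ncx1+/+ was 0.163 (0.108 to 0.238). Egr3 gave 0 counts in Ncx1-/-, 2 in Ncx1+/- and 1 in Ncx1+/+ cardiomyocyte-gated nuclei, too few to order. Ier2 stood at 67.0 CPM in Ncx1-/- (2343 counts), 126 CPM in Ncx1+/- (3747 counts) and 102 CPM in Ncx1+/+ (3506 counts). Its intervals were apart too, with ratios to Ncx1+/+ of 0.660 (0.626 to 0.695) for Ncx1-/- and 1.24 (1.18 to 1.29) for Ncx1+/-. The Ncx1-/- call of Ier2 lay just past the criterion: with TMM scaling the ratio was 0.673, and Ier2 was not called. Nr4a1 stood at 5.21 CPM in Ncx1-/-, 6.61 CPM in Ncx1+/- and 4.78 CPM in Ncx1+/+, and only the intervals of Ncx1+/- and Ncx1+/+ were apart (ratio 1.38, 1.12 to 1.71).

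**Figure D1:**
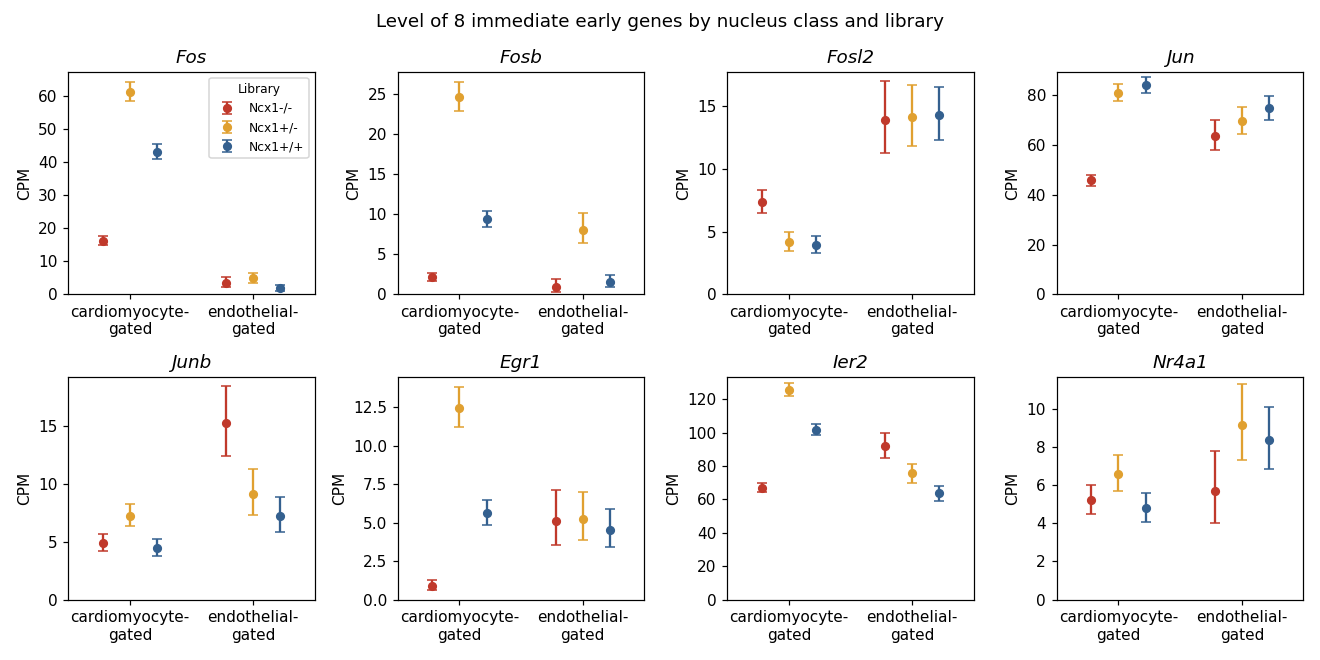
Level in CPM (vertical axes, linear, from 0) of the 8 members measured in cardiomyocyte-gated nuclei, shown there and in endothelial-gated nuclei, with 1 point per library and bars for the exact 95% counting interval. In cardiomyocyte-gated nuclei Egr1, Fos, Fosb and Ier2 run from Ncx1-/- at the bottom to Ncx1+/- at the top, and Fosl2 is highest in Ncx1-/-.

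The order of the 3 libraries in cardiomyocyte-gated nuclei fell into 4 kinds. Egr1, Fos, Fosb and Ier2 ran Ncx1+/- over Ncx1+/+ over Ncx1-/-, an order shown by 17.8% of all measured genes. Jun ran Ncx1+/+ over Ncx1+/- over Ncx1-/- (28.2% of measured genes), Junb and Nr4a1 ran Ncx1+/- over Ncx1-/- over Ncx1+/+ (9.25%), and Fosl2 ran Ncx1-/- over Ncx1+/- over Ncx1+/+ (25.1%). The median log2 ratio of Ncx1-/- to Ncx1+/+ was -0.74 over the 8 measured members and -0.02 over all measured genes. The members were chosen by their levels in these libraries, so nothing is read from this gap. Some other quantities took the same order as Fos. The summed heat shock genes stood at 830 CPM in Ncx1-/-, 1044 CPM in Ncx1+/- and 890 CPM in Ncx1+/+, and the summed erythroid markers in the cardiomyocyte gate at 139, 347 and 293 CPM in the same libraries. Mitochondrial UMIs made up 0.0562%, 0.0744% and 0.0508% in the order Ncx1-/-, Ncx1+/-, Ncx1+/+, also highest in Ncx1+/-. The part of the heat shock, erythroid and mitochondrial values in the order was not tested. Erythroid-gated nuclei themselves gave 1 count of Fos in Ncx1-/- (8.30 CPM, interval 0.21 to 46.2), 4 in Ncx1+/- (5.17 CPM, 1.41 to 13.2) and 1 in Ncx1+/+ (1.08 CPM, 0.0274 to 6.03). The first interval includes the cardiomyocyte-gated level of that library, and the others lie below theirs. Endothelial markers in the cardiomyocyte gate lay between 248 and 253 CPM in the 3 libraries.

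**Figure D2:**
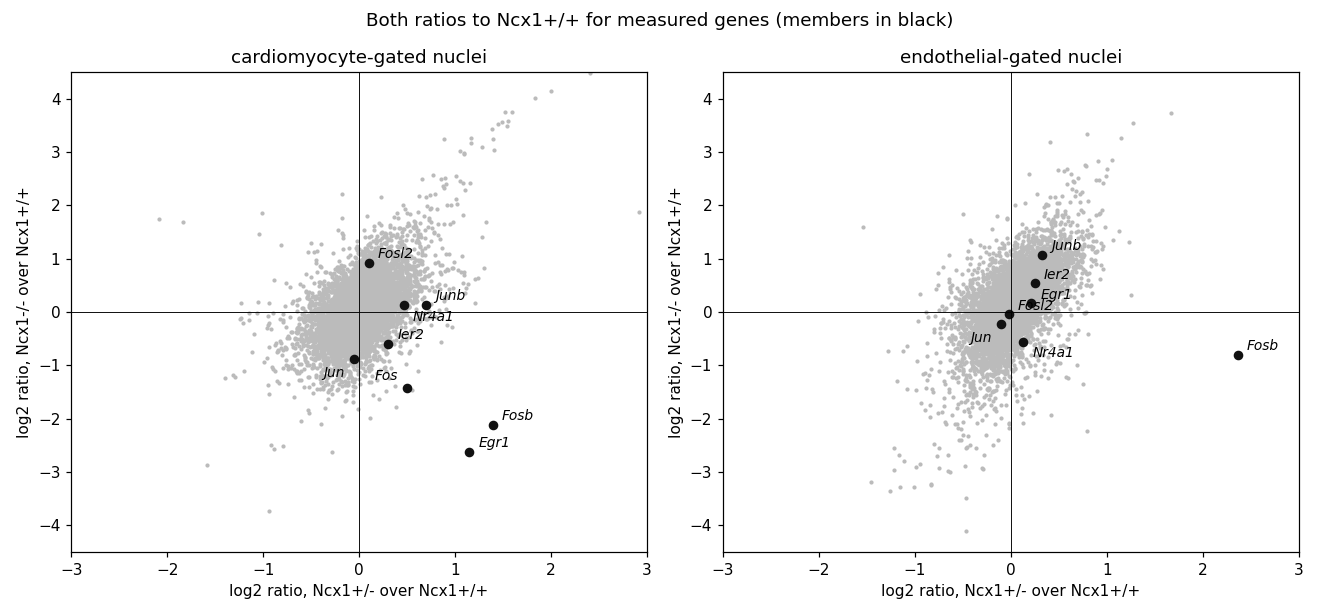
Each grey point is 1 measured gene, with the log2 ratio of Ncx1+/- to Ncx1+/+ on the horizontal axis and that of Ncx1-/- to Ncx1+/+ on the vertical axis, for cardiomyocyte-gated (left) and endothelial-gated (right) nuclei, and the members are in black. Egr1 and Fosb lie at the lower right of the cardiomyocyte panel, low in Ncx1-/- and high in Ncx1+/-, and Fosb lies to the far right of the endothelial panel.

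In endothelial-gated nuclei, from the cells that line the heart chambers and vessels, 7 members were measured, all but Egr3 and Fos. None had such a low value in Ncx1-/- (3.87% of the 11236 measured genes had). Junb was higher in Ncx1-/- (7.56% of measured genes), and Fosb was higher in Ncx1+/- (0.125%). None was lower in Ncx1+/- (0.151%). Junb stood at 15.3 CPM in Ncx1-/- (102 counts, interval 12.5 to 18.5), 9.15 CPM in Ncx1+/- (85 counts, 7.31 to 11.3) and 7.28 CPM in Ncx1+/+ (93 counts, 5.88 to 8.92). Its Ncx1-/- value lay above both others, whose intervals overlapped, at 2.10 times Ncx1+/+ (1.57 to 2.81). Fosb stood at 0.898 CPM in Ncx1-/- (6 counts), 8.07 CPM in Ncx1+/- (75 counts) and 1.57 CPM in Ncx1+/+ (20 counts). The Ncx1+/- library was the high one here too, at 5.15 times Ncx1+/+ (3.11 to 8.91), but its 101 counts lay just above the minimum of 100, and a stricter gate ended the call. Ier2 ran the other way from the cardiomyocyte gate, at 92.2 CPM in Ncx1-/-, 75.5 CPM in Ncx1+/- and 63.6 CPM in Ncx1+/+, with intervals that did not overlap. Egr1 lay between 4.54 and 5.27 CPM in all 3 libraries, Fosl2 between 13.9 and 14.3 CPM, and Jun between 63.8 and 74.8 CPM. Nr4a1 stood at 5.69 CPM in Ncx1-/-, 9.15 CPM in Ncx1+/- and 8.38 CPM in Ncx1+/+. The order of Junb and Ier2 was also that of Malat1, at 4.03%, 2.44% and 2.33% of UMIs in Ncx1-/-, Ncx1+/- and Ncx1+/+, and of the summed heat shock genes, at 867, 720 and 633 CPM. None of 7 measured heat shock genes was called in Ncx1-/- there, and the part of these quantities was not tested.

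Fos was sparse in endothelial-gated nuclei, and cardiomyocyte RNA was present there too. Cardiomyocyte markers in this gate reached 8.25%, 5.48% and 5.43% of their level in cardiomyocyte-gated nuclei of Ncx1-/-, Ncx1+/- and Ncx1+/+. At those shares the cardiomyocyte level of Fos corresponds to 1.33, 3.37 and 2.35 CPM, and the measured levels were 3.44 CPM (23 counts), 4.84 CPM (45 counts) and 1.80 CPM (23 counts) in the same order of libraries. The ratio of Ncx1-/- to Ncx1+/+ was 1.91 (1.02 to 3.56), which moved to 1.12 without the doublet filter. For Fosb in Ncx1+/- the corresponding value was 1.35 CPM, against the 8.07 CPM measured, and for Junb in Ncx1-/- it was 0.406 CPM against 15.3 CPM. With other scalings the median of all measured genes in endothelial-gated nuclei shifted by 0.13 (TMM) or 0.15 (median-of-ratios) on the log2 scale for Ncx1-/- over Ncx1+/+. Of the genes called in Ncx1-/- there, 66.1% were higher with CPM, 46.3% with TMM and 45.1% with median-of-ratios factors. Under both scalings the ratio of Junb stayed above 1 (1.91 and 1.89), as did that of Ier2 (1.32 and 1.31). Nr4a1 was called lower in Ncx1-/- under both, but endothelial Leiden clusters (described below) differed. In the order Ncx1-/-, Ncx1+/-, Ncx1+/+, it stood at 6.6, 7.85 and 3.83 CPM in cluster 14. In cluster 5 it stood at 1.61, 3.34 and 8.19 CPM, and in cluster 4 at 6.50, 12.7 and 12.4 CPM. Cluster 4 held 156, 760 and 1169 nuclei, and the part of such make-up in the call was not tested.

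Splitting the endothelial gate by cushion mesenchyme markers, which mark cells leaving the endocardium to build the valves, left 156, 424 and 734 nuclei high in them in Ncx1-/-, Ncx1+/- and Ncx1+/+. No member was called higher or lower between the parts in all 3 libraries (0.409% and 0.16% of measured genes were). Nr4a1 stood at 4.29, 2.99 and 2.83 CPM in nuclei high in these markers, and at 5.85, 10.8 and 10.8 CPM in nuclei low in them, in the order Ncx1-/-, Ncx1+/-, Ncx1+/+. Its ratio between the parts was 0.734 (0.144 to 2.33) in Ncx1-/-, 0.276 (0.0983 to 0.628) in Ncx1+/- and 0.262 (0.126 to 0.489) in Ncx1+/+.

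Comparing the classes within each library, Fos was the member most tied to cardiomyocyte-gated nuclei. Its level there over that in endothelial-gated nuclei was 4.70-fold in Ncx1-/- (interval 3.10 to 7.47), 12.7-fold in Ncx1+/- (9.44 to 17.5) and 24.0-fold in Ncx1+/+ (16.0 to 38.0). Fosb was also higher in the cardiomyocyte gate in all 3 libraries, by 2.39-fold, 3.04-fold and 5.96-fold in Ncx1-/-, Ncx1+/- and Ncx1+/+. Of all measured genes, 19.7% were at least 1.5 times higher in the cardiomyocyte gate in every library. Fosl2 was lower there in all 3, at 0.530, 0.297 and 0.273 of the endothelial level in Ncx1-/-, Ncx1+/- and Ncx1+/+, as were 14.9% of measured genes. The class difference of Egr1 changed side between libraries, at 0.180 in Ncx1-/- (0.1075 to 0.3005), 2.37 in Ncx1+/- (1.75 to 3.26) and 1.24 in Ncx1+/+ (0.919 to 1.69). Ier2 likewise stood at 0.727 in Ncx1-/-, 1.66 in Ncx1+/- and 1.60 in Ncx1+/+.

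The other classes were small. Erythroid-gated nuclei numbered 75 in Ncx1-/-, 422 in Ncx1+/- and 466 in Ncx1+/+, with median depths of 1436, 1748 and 1842 UMIs. Ier2 stood at 191 CPM in the Ncx1-/- erythroid gate (23 counts), 46.5 CPM in Ncx1+/- (36 counts) and 41.1 CPM in Ncx1+/+ (38 counts). Egr1 stood at 49.8 CPM in Ncx1-/- (6 counts, interval 18.3 to 108), 3.88 CPM in Ncx1+/- (3 counts, 0.800 to 11.3) and 5.41 CPM in Ncx1+/+ (5 counts, 1.76 to 12.6). For both genes Ncx1-/- was the high library, the opposite side from the cardiomyocyte gate, at 4.64 times Ncx1+/+ for Ier2 (2.64 to 7.99) and 9.20 times for Egr1 (2.34 to 38.1). Fosb and Nr4a1 gave none in any library. Epicardial-gated nuclei numbered 94 in Ncx1-/-, 2 in Ncx1+/- and 63 in Ncx1+/+, so Ncx1-/- and Ncx1+/+ alone can be set side by side. Jun stood at 103 CPM in Ncx1-/- epicardial-gated nuclei (33 counts) and 118 CPM in Ncx1+/+ (27 counts), and Ier2 at 74.8 CPM (24 counts) and 83.3 CPM (19 counts), with ratios whose intervals included 1. Nuclei that passed no gate numbered 472, 377 and 591 in Ncx1-/-, Ncx1+/- and Ncx1+/+, and held Fos at 16.0, 43.2 and 17.1 CPM.

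Within the heart muscle, Fos was higher in the ventricular than in the atrial gate in each library. The cardiomyocyte-gated nuclei were assigned to a chamber by their mean score on chamber marker lists, and 3924, 3584 and 3723 nuclei of Ncx1-/-, Ncx1+/- and Ncx1+/+ stayed without a chamber. A total of 21.4% of the cardiomyocyte-gated nuclei (5400) lay close to a chamber threshold, within 0.05 of the score, so the chambers are ranges of a score. In ventricular-gated nuclei Fos stood at 18.7 CPM in Ncx1-/-, 87.2 CPM in Ncx1+/- and 56.7 CPM in Ncx1+/+. In atrioventricular canal nuclei it stood at 19.9, 65.8 and 45.8 CPM in the same order of libraries. In outflow tract nuclei it stood at 8.84, 33.8 and 19.3 CPM, and in atrial nuclei at 5.50, 20.98 and 14.35 CPM. The order Ncx1+/- over Ncx1+/+ over Ncx1-/- thus held for Fos in each of the 4 chamber gates and in nuclei without a chamber (17.4, 61.7 and 46.9 CPM in Ncx1-/-, Ncx1+/- and Ncx1+/+).

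The ventricular over the atrial level of Fos was 3.40-fold in Ncx1-/- (interval 2.20 to 5.47), 4.16-fold in Ncx1+/- (3.22 to 5.44) and 3.95-fold in Ncx1+/+ (2.97 to 5.37). Jun was also higher in ventricular than atrial nuclei in every library, by 1.95-fold, 2.49-fold and 2.43-fold in Ncx1-/-, Ncx1+/- and Ncx1+/+, where 3.29% of measured genes were (2.67% were lower). Fos was the 1 member at least 1.5 times higher in the atrioventricular canal than in atrial nuclei in all 3 libraries, by 3.61-fold, 3.14-fold and 3.19-fold (4.0% of measured genes). Below that limit in Ncx1-/-, Ier2 was higher there by 1.33-fold (1.14 to 1.55) in Ncx1-/-, 1.64-fold (1.43 to 1.89) in Ncx1+/- and 1.69-fold (1.47 to 1.94) in Ncx1+/+. At the same limit Fos was the 1 member higher in ventricular than in outflow tract nuclei, by 2.12-fold, 2.58-fold and 2.94-fold (2.42% of measured genes). Jun exceeded its outflow tract level by less, 1.32-fold (1.04 to 1.70) in Ncx1-/-, 1.62-fold (1.34 to 1.97) in Ncx1+/- and 1.40-fold (1.20 to 1.64) in Ncx1+/+. Between ventricular and atrioventricular canal nuclei no member passed the limit in all 3 libraries, in either direction (4.43% and 4.56% of measured genes did). Jun came close there, at 1.58-fold, 1.46-fold and 1.69-fold in Ncx1-/-, Ncx1+/- and Ncx1+/+, with intervals above 1. The chamber gates use no member, but the same nuclei give both the gates and these levels.

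**Figure D3:**
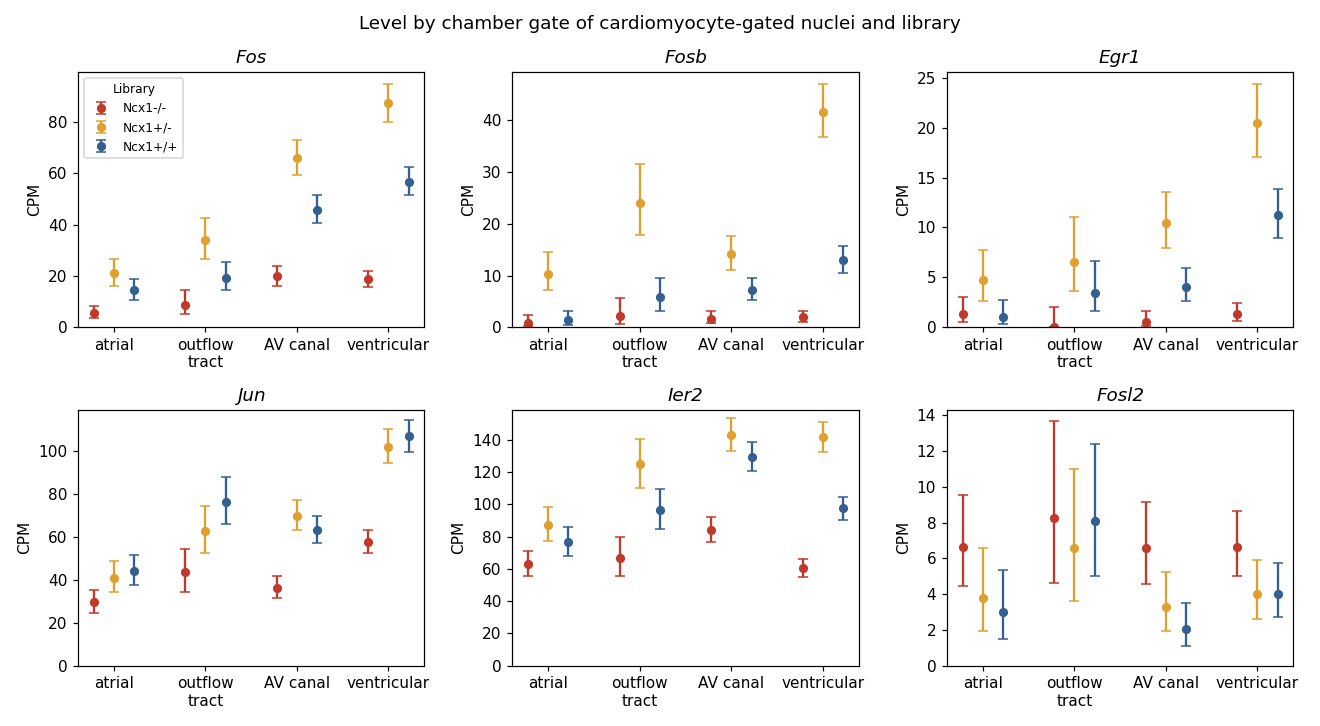
Level in CPM (vertical axes, linear, from 0) of 6 members in 4 chamber gates of cardiomyocyte-gated nuclei, with 1 point per library and bars for the exact 95% counting interval. Fos is higher in the ventricular than in the atrial gate in each library, and Fosl2 has its highest point in Ncx1-/- in all 4 gates, where its interval overlaps that of at least 1 other library.

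By chamber, the differences between libraries were as follows. In ventricular nuclei 8 members were measured, and the same 5 as in the whole cardiomyocyte gate were lower in Ncx1-/- (1.82% of measured genes). Fosl2 was higher in Ncx1-/- (3.84%), and Egr1, Fos and Fosb were higher in Ncx1+/- (0.316%). Egr1 in ventricular nuclei stood at 1.35 CPM in Ncx1-/- (11 counts), 20.5 CPM in Ncx1+/- (128 counts) and 11.2 CPM in Ncx1+/+ (84 counts), and Fosb at 1.97, 41.6 and 13.0 CPM. In the atrioventricular canal 6 were measured, of which Fos, Fosb, Jun and Ier2 were lower in Ncx1-/- (3.34%), and Fosb and Junb were higher in Ncx1+/- (0.168%). Ier2 there stood at 84.0 CPM in Ncx1-/-, 143 CPM in Ncx1+/- and 129 CPM in Ncx1+/+. The gap between Ncx1+/- and Ncx1+/+ closed under a stricter chamber gate, at a ratio of 0.999. In atrial nuclei 3 members were measured and Fos was lower in Ncx1-/- (2.14%). In outflow tract nuclei 3 were measured, with Fos lower in Ncx1-/- (3.93%) and higher in Ncx1+/- (0.312%). In calls that took in no member, 3.03% of measured genes were higher in Ncx1-/- and 0.112% lower in Ncx1+/- in the atrioventricular canal, 3.23% were higher in Ncx1-/- and 0.162% lower in Ncx1+/- in the outflow tract, and 0.108% were lower in Ncx1+/- in ventricular nuclei. In atrial nuclei 2.26% were higher in Ncx1-/-, 0.219% higher in Ncx1+/- and 0.428% lower in Ncx1+/-. Egr1 gave 0 counts in Ncx1-/- outflow tract nuclei, 14 in Ncx1+/- and 9 in Ncx1+/+, and the exact upper limit of the 0 counts is 2.04 CPM. In atrial nuclei the level of Jun stood at 29.6 CPM in Ncx1-/-, 41.0 CPM in Ncx1+/- and 44.1 CPM in Ncx1+/+, a smaller gap than in ventricular nuclei (57.6, 102 and 107 CPM), though that difference was not tested.

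Leiden clusters, made without the 9 genes, gave a finer division of the muscle nuclei. In 11 cardiomyocyte clusters with at least 50 nuclei of each library, Fos was lower in Ncx1-/- than in Ncx1+/+ in 10 and higher in Ncx1+/- than in Ncx1+/+ in 11. The exception for Ncx1-/- was cluster 12, of low UMI counts, with 6 counts in Ncx1-/-, 14 in Ncx1+/- and 3 in Ncx1+/+. The interval of the Fos ratio to Ncx1+/+ included 1 in clusters 8 and 12 for Ncx1-/-, and in clusters 0 and 9 for Ncx1+/-. Jun and Ier2 were lower in Ncx1-/- than in Ncx1+/+ in all 11 clusters, with ratios of 0.375 to 0.821 for Jun and 0.327 to 0.919 for Ier2. The interval included 1 in cluster 13 for Jun, and in clusters 8, 10 and 13 for Ier2. Fosl2 was higher in Ncx1-/- in 10 of the 11, with a median ratio of 1.76, but its interval excluded 1 only in clusters 1, 8, 13 and 15. The clusters divide the same 3 libraries, so they are not repeats of the comparison, and no such tally over all genes is given. The highest Fos level of Ncx1+/- and of Ncx1+/+ was in cluster 2, whose leading genes include Slit2, Gja5 and Nppa, of which Gja5 (a connexin) and Nppa (a natriuretic peptide) are known from ventricular trabeculae. Fos in this cluster stood at 20.2 CPM in Ncx1-/-, 146 CPM in Ncx1+/- and 112 CPM in Ncx1+/+, and Egr1 at 2.17, 36.1 and 31.8 CPM. Of the 11 clusters this one had the lowest ratio of Fos in Ncx1-/- to Ncx1+/+, at 0.181 (0.134 to 0.241).

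Cluster 7, led by Lmo2 and Rxfp1, held 9 nuclei of Ncx1-/-, 240 of Ncx1+/- and 366 of Ncx1+/+. Its Fos level was 114 CPM in Ncx1+/- and 79.4 CPM in Ncx1+/+, and its Egr1 level was 48.1 CPM in Ncx1+/- and 20.3 CPM in Ncx1+/+. Without this cluster 4 members were called lower in Ncx1-/- in the cardiomyocyte gate, Ier2 being the one lost at a ratio of 0.674. In the atrial cluster 13 Fos was low, at 6.77 CPM in Ncx1-/-, 18.1 CPM in Ncx1+/- and 11.3 CPM in Ncx1+/+. There Egr1 gave 5 counts in Ncx1-/-, 13 in Ncx1+/- and 1 in Ncx1+/+.

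**Figure D4:**
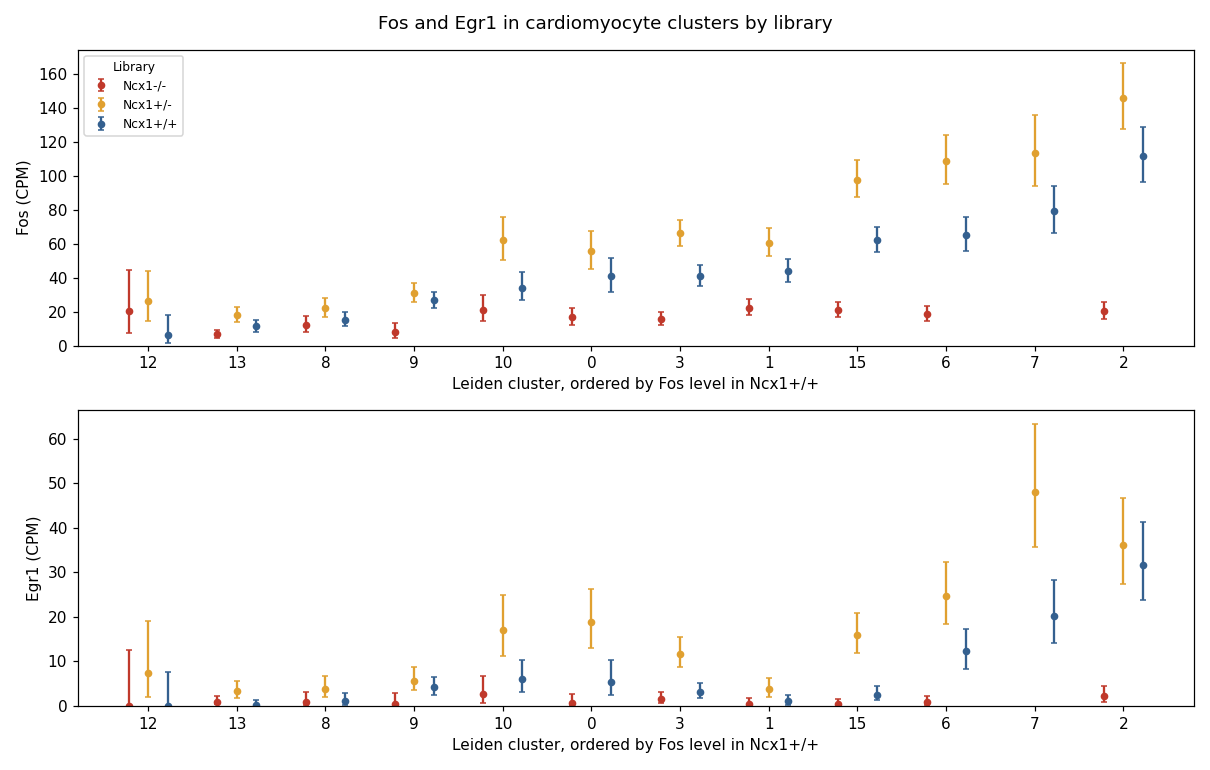
Level of Fos (top) and Egr1 (bottom) in CPM (linear axes from 0) in each cardiomyocyte cluster with at least 50 Ncx1+/+ nuclei, ordered by the Fos level in Ncx1+/+. Points are libraries with at least 50 nuclei of the cluster and bars are exact 95% counting intervals. The Ncx1-/- points for Fos stay between 6.77 and 22.2 CPM while those of Ncx1+/- reach 146 CPM in cluster 2, and cluster 7 has no Ncx1-/- point.

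Shares of nuclei followed the levels. After each nucleus was thinned to 2000 UMIs, with shallower nuclei left out, 8122, 7220 and 7879 cardiomyocyte-gated nuclei remained in Ncx1-/-, Ncx1+/- and Ncx1+/+. Fos was detected in 3.004% of them in Ncx1-/- (exact interval 2.64 to 3.40), 9.40% in Ncx1+/- (8.74 to 10.1) and 7.18% in Ncx1+/+ (6.62 to 7.78), and without thinning in 5.34%, 14.2% and 12.1%. In endothelial-gated nuclei, thinned alike, Fos was detected in 0.655% in Ncx1-/-, 0.954% in Ncx1+/- and 0.502% in Ncx1+/+, and the part of free RNA in these shares was not tested. The median depths were 3603, 3403 and 3757 UMIs in the cardiomyocyte gate, and 3564, 4026 and 4801 UMIs in the endothelial gate, in the order Ncx1-/-, Ncx1+/-, Ncx1+/+. Egr1 was detected in 0.172%, 2.26% and 0.952% of thinned cardiomyocyte-gated nuclei in that order, and Fosb in 0.320%, 3.55% and 1.64%. Egr3 was detected in 0 of 8122 nuclei of Ncx1-/-, which allows a share of nuclei with a UMI of up to 0.0369% at 3 counts of the total (exact upper limit 0.0454%), in 1 nucleus of Ncx1+/- and in 0 of Ncx1+/+. Any member was detected in 24.4% of thinned nuclei of Ncx1-/-, 38.6% of Ncx1+/- and 35.6% of Ncx1+/+. Single nuclei reached 6 UMIs of Fos in Ncx1-/-, 12 in Ncx1+/- and 8 in Ncx1+/+, and 1 nucleus of Ncx1+/+ held 59 UMIs of Jun.

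Over the whole cardiomyocyte gate, nuclei with Fos held Jun more often than nuclei without it in all 3 libraries, by intervals that did not overlap. The same held for Egr1, Fosb and Ier2 in Ncx1+/- and Ncx1+/+, and for Junb and Nr4a1 in Ncx1+/- only. Among thinned cardiomyocyte-gated nuclei with Fos, Egr1 was detected in 0.410% in Ncx1-/- (1 of 244), 7.95% in Ncx1+/- (54 of 679) and 4.06% in Ncx1+/+ (23 of 566). Among those without Fos it was detected in 0.165% in Ncx1-/-, 1.67% in Ncx1+/- and 0.711% in Ncx1+/+. The intervals of nuclei with and without Fos were apart in Ncx1+/- and in Ncx1+/+ and overlapped in Ncx1-/-. Fosb was detected in 1.23%, 12.7% and 4.24% of nuclei with Fos, and in 0.292%, 2.60% and 1.44% of those without it, in Ncx1-/-, Ncx1+/- and Ncx1+/+. Jun was detected in 13.93%, 25.18% and 18.02% of nuclei with Fos, and in 8.12%, 12.5% and 13.4% of those without, in the same order of libraries. Fosl2 was detected in 2.05%, 1.03% and 0.177% of nuclei with Fos and in 1.32%, 0.810% and 0.834% of those without, with overlapping intervals in each library. Within ventricular nuclei alone, Jun was detected in 12.3%, 23.1% and 22.8% of nuclei with Fos (65, 186 and 145 nuclei) in the same order. Among ventricular nuclei without Fos it was detected in 9.99%, 16.5% and 16.9%, with overlapping intervals in each library. For Egr1 and Ier2 the ventricular intervals were apart in Ncx1+/- and Ncx1+/+, and for Fosb and Junb in Ncx1+/- only. These nuclei share a library and differ in chamber, so the values are descriptive.

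Other immediate early genes, a list of 42 of which 41 are in the files, gave 35 measured genes in cardiomyocyte-gated nuclei. Of these, 3 were higher in Ncx1-/- (Ier3, Cebpb and Npas4) and 1 was lower (Cyr61), against 4.34% and 2.91% of all measured genes. Cyr61, which encodes a secreted matricellular protein, stood at 68.4 CPM in Ncx1-/-, 138 CPM in Ncx1+/- and 124 CPM in Ncx1+/+. Ier3, a stress-induced survival gene, stood at 50.4 CPM in Ncx1-/-, 19.1 CPM in Ncx1+/- and 9.19 CPM in Ncx1+/+. Cebpb, which encodes a basic leucine zipper factor, stood at 21.2, 13.5 and 8.72 CPM, and the neuronal activity factor Npas4 at 7.98, 4.16 and 4.55 CPM, in the same order of libraries. The Jun relative Jund stood at 145, 198 and 202 CPM and was not called. The median log2 ratio of Ncx1-/- to Ncx1+/+ over the 35 genes was -0.02, as over all measured genes. Cyr61 was thus the 1 gene of 35 with the Ncx1-/- call of Egr1, Fos and Fosb. That call was met by 2.91% of all measured genes, so nothing is read from it.

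In endothelial-gated nuclei 32 genes of that list were measured, of which 7 were higher in Ncx1-/- and 3 were lower, against 7.56% and 3.87% of all measured genes. That split over all genes turned with the scaling, as given above. The higher ones were Ier3, Sgk1, Klf10, Maff, Btg1, Cebpb and Ier5l. Ier3 stood at 50.1 CPM in Ncx1-/-, 12.9 CPM in Ncx1+/- and 7.52 CPM in Ncx1+/+. Klf10, a zinc finger gene induced by TGF-beta, stood at 115, 55.9 and 53.5 CPM, and the kinase gene Sgk1 at 44.6, 21.2 and 17.5 CPM, in the same order. The lower ones were Klf4, Nfkbiz and Klf6. Klf4, which flow induces in endothelium, stood at 6.73 CPM in Ncx1-/-, 19.2 CPM in Ncx1+/- and 18.4 CPM in Ncx1+/+. The median log2 ratio of Ncx1-/- to Ncx1+/+ was 0.41 over these 32 genes and 0.10 over all measured genes.

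Activators and partners of immediate early genes were also described by class. None of the 24 genes of this list, all measured in the cardiomyocyte gate, was called higher or lower in Ncx1-/- there. Of all measured genes, 4.34% were called higher and 2.91% lower, so nothing is read from this count. The list holds Srf, its myocardin-related cofactors and Elk partners, Creb1, the Mef2 genes and kinases of the MAPK and CaMK families. Mef2c, the gene of the list with the most counts, stood at 1038 CPM in Ncx1-/-, 1159 CPM in Ncx1+/- and 1177 CPM in Ncx1+/+. Camk2d, the gene with the next most counts, which encodes the main cardiac calcium/calmodulin kinase, stood at 888, 889 and 873 CPM in that order. In endothelial-gated nuclei 22 were measured, with Mapk3 higher in Ncx1-/- (126, 69.8 and 57.5 CPM in Ncx1-/-, Ncx1+/- and Ncx1+/+) and Camk4 lower (3.74, 6.99 and 7.67 CPM). Of all measured genes there, 7.56% were called higher and 3.87% lower. Of 7 heat shock genes measured in cardiomyocyte-gated nuclei, Hsph1 was lower in Ncx1-/- (20.3, 32.1 and 30.8 CPM in the same order). No other was called, and the shares over all measured genes are the 4.34% and 2.91% given above.

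The genes most like the members were taken by the Pearson correlation of their log2(CPM + 1) with the mean log2(CPM + 1) of the members. Across 9 units, each a nucleus class in 1 library, the 10 most alike of 4094 genes were Tmem167 (r = 0.929), Ubxn7 (0.885), Arhgap10 (0.884), Sms (0.882), Capzb (0.873), Serpinh1 (0.868), Tmem55a (0.865), Nedd4 (0.851), Smad4 (0.848) and Nmt2 (0.840). Across 12 units, each a chamber gate in 1 library and added after the data were seen, Agps (0.900), Zfp809 (0.893), Emc7 (0.892), Kidins220 (0.889) and Jund (0.883) led 7912 genes. Units share libraries and differ in depth, so these correlations are descriptions. The mean joins members that differed in opposite directions, such as Fos and Fosl2. Tmem167 stood at 154, 165 and 158 CPM in cardiomyocyte-gated nuclei of Ncx1-/-, Ncx1+/- and Ncx1+/+. In erythroid-gated nuclei it stood at 149, 114 and 120 CPM in the same order. A high correlation over classes thus does not mean that a gene differed between libraries as Fos did. Kidins220 stood at 411 CPM in ventricular nuclei of Ncx1-/-, 655 CPM in Ncx1+/- and 511 CPM in Ncx1+/+. Fos and Egr1 took this order there, as did 19.3% of the 11082 measured genes. Kidins220 was picked by its correlation over these same units, so nothing is read from the shared order.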

How the data were processed

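Nuclei of embryonic day 9.5 mouse hearts, isolated by homogenising and sorting, were measured with 10x Genomics v3.1 chemistry. The deposited values are whole-number UMI counts per gene and nucleus, not normalized, made by the authors with Cell Ranger 6.1.0 on mm10, per the submitters' processing notes. The matrix header names Cell Ranger 9.0.0, and no source names the use of strand or introns.

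Kept nuclei had 500 or more detected genes and no more than 5% of UMIs from mitochondrial genes. The top 8% of Scrublet scores per library were removed as doublets, since the automatic threshold marked 0 nuclei in Ncx1-/- against 1355 in Ncx1+/- and 1399 in Ncx1+/+. Classes were gated per 10000 UMIs on marker lists (100 cardiomyocyte, 20 endothelial, 60 erythroid, 8 epicardial), and chambers by a mean z-score of at least 0.3 with a margin of 0.2. Counts were summed per class and library and divided by the total (CPM), with exact Poisson intervals and exact conditional intervals for ratios. Clusters were Leiden clusters (scanpy 1.11.5, 2000 variable genes, 30 components, 15 neighbours, resolution 1.0). Python 3.11.15, scipy 1.17.1 and, for TMM factors only, edgeR 4.0.16 were used. The call rule was tried on simulated counts with counting error only, which does not cover variation between libraries of the same genotype.

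All 9 members were described. Genes of the other lists were named where they stood apart, up to 10 per class, or the 2 with the most counts where none did. The 10 genes most like the members were named by correlation. The members and lists were chosen with earlier results of these data known. Alternatives varied the count minimum, scaling, doublets, filters, gates, weighting of nuclei, fold, cardiomyocyte RNA and thinning.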

Additional observations from a re-analysis of the deposited data

Results flagged for a closer look

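The ratio of Ncx1-/- to Ncx1+/+ lay on opposite sides of 1 in the 2 main classes for Fos and for Ier2. For Fos it was 0.3733 in cardiomyocyte-gated nuclei and 1.911 in endothelial-gated nuclei, where it rests on 23 counts in each library. For Ier2 it was 0.6596 in cardiomyocyte-gated nuclei and 1.45 in endothelial-gated nuclei, on 616 counts in Ncx1-/- and 812 counts in Ncx1+/+. With 1 library per genotype the difference between the classes was not tested.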

How the results depend on the processing

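Of the counts of members called, 94 stayed within 1.5 times of the reported count under the alternatives and 10 did not. Counts of 0 that remained 0 are among the 94, as are counts that changed only by the loss of Ier2. With a fold of 2 in place of 1.5, 3 members (Egr1, Fos and Fosb) were lower and 0 were higher in Ncx1-/- cardiomyocyte-gated nuclei, and 0 were higher in Ncx1-/- endothelial-gated nuclei. In endothelial-gated nuclei 1 member, Nr4a1, was lower in Ncx1-/- with TMM factors, with median-of-ratios factors, with the stricter gate and with cardiomyocyte RNA subtracted. Its order differed between endothelial clusters, as given above. Members higher in Ncx1+/- there numbered 2 (Fos and Fosb) without the doublet filter. They numbered 0 with the stricter gate and with cardiomyocyte RNA subtracted, although the Fosb ratio to Ncx1+/+ was 5.07 and 6.09, against 5.15. The cardiomyocyte call of Ier2 in Ncx1-/- was lost with TMM (0.673) and median-of-ratios factors (0.673), and, in alternatives chosen after seeing the data, with Malat1 out of the total (0.688) and without cluster 7 (0.674). Of the ratios by class 360 stayed within their interval and 1 moved, and of those by chamber 311 stayed, 7 moved and 1 turned: Ier2 in the atrioventricular canal, Ncx1+/- over Ncx1+/+, was 0.999 (0.890 to 1.12) with the stricter gate, and the cause was not tested. Without thinning, 45 shares of nuclei moved and 9 did not. Of genes called in Ncx1-/- cardiomyocyte-gated nuclei, 59.9% were higher with CPM and 67.0% with either other scaling. No paired analysis was possible because each genotype has 1 library and no replicate number. Depth limits Egr3, Fos in endothelial-gated nuclei and all members in erythroid-gated and epicardial-gated nuclei. It also limits all members but Fos, Jun and Ier2 in atrial and outflow tract nuclei, and Egr1 and Fosl2 in the atrioventricular canal.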
